A study of Mus musculus with 31 samples.

Results

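The imprinted domain of distal mouse chromosome 7 was followed through 8 genes of a table of 24470 gene symbols: H19, Igf2, Ascl2, Kcnq1, Kcnq1ot1, Cdkn1c, Slc22a18 and Phlda2. Members were taken by symbol, and every transcript row of each was read, which gave 12 rows of 28972. RNA came from 3 groups of female dermal fibroblasts with 2 libraries each. The first, called line 1 here, carried a wild-type Xist on the active X and a deleted Xist on the inactive X (XaWT XiΔXist). The second, line 2, was another cell line of that genotype, and the third was wild-type (WT) for Xist. The cells of all groups were hybrids of strain CAST/Ei x 129/Sv/Jae, were grown without treatment in a standard fibroblast medium with 10% serum, and have no age in the labels. Each deletion line is 1 cell line, so what the deletion does and what the line carries besides it cannot be told apart. The study asked what Xist RNA does once the inactive X is established, and the members lie on an autosome, outside the chromosome that Xist coats.

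Imprinted genes are transcribed from the copy inherited from 1 parent only. At the H19 end of the domain, an imprinting control region bound by CTCF on the maternal copy lets H19, a noncoding RNA that hosts the microRNA miR-675, be made from the maternal copy and Igf2, a growth factor, from the paternal copy. At the Kcnq1 end, Kcnq1ot1, a long unspliced RNA made from the paternal copy, silences neighbours in cis, among them the cyclin-dependent kinase inhibitor Cdkn1c. Many of these genes are high in the embryo and placenta and low after birth. Parent-specific reads of chromosome 7 were not analysed here, so every value is the sum over both copies.

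Sequences are shown for the starts of 2 members, 1 with many counts and 1 with almost none, and for the microRNA arms of H19. These counts are not scaled by length. Per kilobase of exon, Kcnq1ot1 stood below Cdkn1c and H19 in WT and line 2. Kcnq1ot1 had the most counts of any member in each library and Ascl2 at most 0.5, and both start regions held 3 CCAAT boxes, counted on both strands without overlap with another motif. The windows run from 250 bases before to 50 bases after the transcript start (RefSeq, GRCm38.p6, the build of mm10), at chr7:143296498-143296797, minus strand, for Kcnq1ot1 and chr7:142969215-142969514, minus strand, for Ascl2. Capitals mark CCAAT, or ATTGG where the box lies on the other strand.
Kcnq1ot1: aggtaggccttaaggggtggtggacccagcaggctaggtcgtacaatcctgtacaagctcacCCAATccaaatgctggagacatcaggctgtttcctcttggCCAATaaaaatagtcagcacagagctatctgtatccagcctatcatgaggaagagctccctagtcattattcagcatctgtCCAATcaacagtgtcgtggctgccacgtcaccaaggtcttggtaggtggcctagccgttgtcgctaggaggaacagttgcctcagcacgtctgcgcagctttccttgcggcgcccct
Ascl2: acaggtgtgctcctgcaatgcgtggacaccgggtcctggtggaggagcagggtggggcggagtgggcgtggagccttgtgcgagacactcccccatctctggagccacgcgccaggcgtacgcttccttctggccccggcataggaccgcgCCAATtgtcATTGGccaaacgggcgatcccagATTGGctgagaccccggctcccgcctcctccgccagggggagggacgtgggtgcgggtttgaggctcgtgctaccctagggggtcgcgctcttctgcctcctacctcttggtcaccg
In the Kcnq1ot1 window all 3 boxes read CCAAT on the strand of the transcript, 188, 148 and 67 bases before the start. Of 32851 RefSeq windows of this length, 37.4% held the motif on either strand and 3.37% held it at least 3 times. The Kcnq1ot1 window had 9 CpG and that of Ascl2 23, against a median of 7 over all windows. A further window was at hand for Phlda2 (1 box, 26 CpG), 1 for Slc22a18 (0 boxes, 2 CpG) and 4 for the starts of Igf2 (0 to 1 box, 2 to 24 CpG). No window was at hand for H19, Cdkn1c or Kcnq1. The same number of boxes thus stood before a member with at least 579 counts in every library and before one with at most 0.5, and a match of letters is a description, not a binding site. The products that H19 carries within its exons are the 2 mature arms of miR-675, shown with their seeds (bases 2 to 8) in capitals. They lie on the minus strand, at chr7:142577112-142577133 (5p) and chr7:142577078-142577099 (3p).
mmu-miR-675-5p: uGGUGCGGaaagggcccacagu
mmu-miR-675-3p: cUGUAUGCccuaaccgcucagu
The seeds differ, so the arms form no shared seed group. The Mir675 hairpin row held deposited counts of 0 and 0 in line 1, 2 and 0 in line 2, and 4.5 and 1 in WT. Those reads lie within H19 too, and libraries of fragmented total RNA do not measure the mature arms.

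The totals in the deposited table, in units of 1000000 counts, were 10.5 and 20.1 in line 1, 11.6 and 18.7 in line 2 and 11.0 and 16.4 in WT, and the counts used here were 3.81 to 7.07 on the same scale. Replicate 1 was the shallower library of each group, and replicates correlated at 0.964 in line 1, 0.985 in line 2 and 0.983 in WT (Pearson, across genes). Xist, the targeted gene, had 6 counts in line 1, 6 in line 2 and 5184 in WT, as the labels say. The 10 fibroblast markers were all detected, with summed levels of 4406 to 7029 counts per 1000000 scaled by TMM (CPM) in line 1, 5177 to 6475 in line 2 and 5223 to 6384 in WT. Markers of keratinocytes, leukocytes, endothelium, skeletal muscle, adipocytes, and melanocytes and Schwann cells each summed to at most 22.4 CPM in any library. Against WT, 3 of these markers were called. Dcn, which encodes the matrix proteoglycan decorin, was higher in line 1 (log2 fold change 2.19, SE 0.43, edgeR quasi-likelihood test, adjusted p = 0.0215), a call lost without WT replicate 2 (adjusted p = 0.0586). Lyz2, a lysozyme of myeloid leukocytes, was lower in line 1 (-1.91, SE 0.42, adjusted p = 0.0307), a call lost without either WT library (0.108 and 0.141) or either line 2 library (0.0661 and 0.0700). The other of the 2 tested leukocyte markers went the other way in line 1, since their median log2 fold change was 0.03. With the replicate number as a block, 1 of the 2 was higher and 1 lower, where 16.3% and 16.1% of all genes were. Kdr, an endothelial receptor, was lower in both lines and is given beside H19. In bulk RNA, fewer cells that express a gene and less RNA per cell cannot be told apart.

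Of the 8 members, 3 had enough reads to be tested: H19, Cdkn1c and Kcnq1ot1. They held nearly all of the domain's reads. The 8 members together summed to 157 and 197 CPM in line 1, 199 and 134 CPM in line 2, and 408 and 293 CPM in WT. Per length, in CPM per kilobase of exon, the order in WT was Cdkn1c at 26.3 ± 9.21, H19 at 10.1 ± 7.27 and Kcnq1ot1 at 3.30 ± 0.552 (SD, n = 2). The ranges of 1 SD overlapped between Cdkn1c and H19 and between H19 and Kcnq1ot1 in WT. Each WT library gave this order, with 32.8, 15.2 and 3.69 in replicate 1 and 19.8, 4.97 and 2.91 in replicate 2. Differences between the genes were not tested. In line 2 the order was the same, with Cdkn1c at 10.0 ± 4.40, H19 at 5.44 ± 3.69 and Kcnq1ot1 at 1.60 ± 0.343, and the ranges of 1 SD again overlapped between Cdkn1c and H19 and between H19 and Kcnq1ot1. Each line 2 library gave that order too. In line 1 it was another order: Kcnq1ot1 led with 2.11 ± 0.336, while Cdkn1c was at 0.143 ± 0.000987 and H19 at 0.0298 ± 0.0422. The other 5 members stayed at or below 0.305 CPM per kilobase on average in each of the 3 groups.

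**Figure D1:**
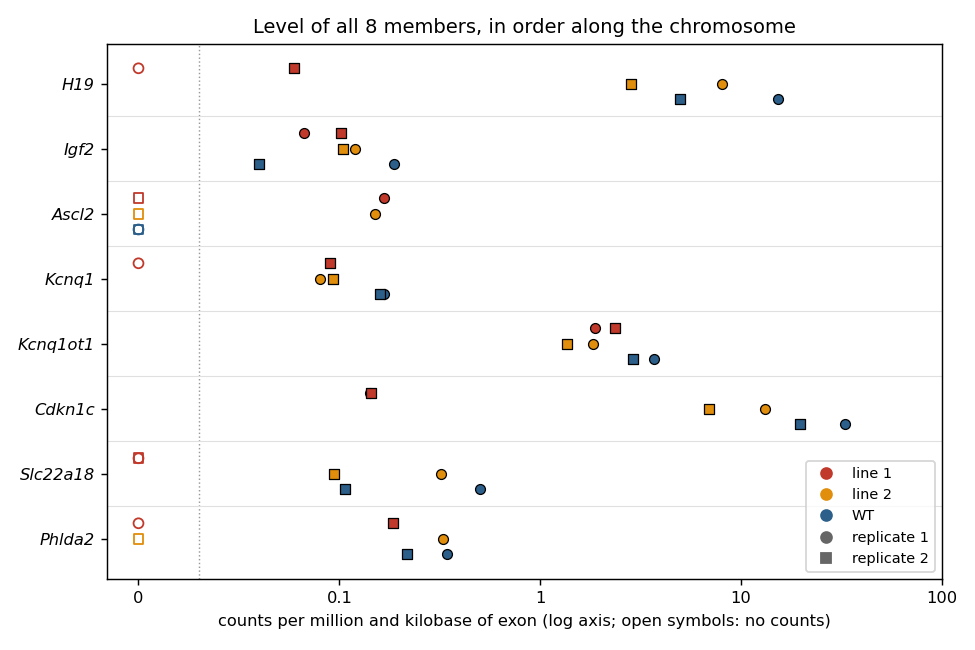
Level of each member in CPM per kilobase of exon (log axis) in line 1, line 2 and WT, with circles for replicate 1, squares for replicate 2 and open symbols at the left for libraries without counts. Cdkn1c and H19 averaged 0.143 and 0.0298 in line 1, far left of their line 2 and WT points, while Kcnq1ot1 averaged 2.11, 1.60 and 3.30 in line 1, line 2 and WT.

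H19 RNA was all but absent from line 1. The gene (NR_130973, 7:142575530-142578146, minus strand, 2.29 kb of exon) had 0 and 1 counts in the line 1 libraries, 76 and 46 in line 2 and 138 and 71 in WT, given by replicate number. In CPM these were 0 and 0.136 in line 1, 18.4 and 6.49 in line 2, and 34.9 and 11.4 in WT. Both line 1 libraries lay below every other, whereas line 2 and WT overlapped. H19 fell in line 1 relative to WT, with a fitted log2 fold change of -7.65 (SE 1.26, edgeR quasi-likelihood test, adjusted p = 0.0120). With 1 count against 209, the log2 ratio of the summed counts was -7.82, with a 95% counting interval of -13.13 to -5.32. The call was lost without line 1 replicate 2. The log2 fold change of -9.82 then depends on the prior count, since the line 1 library left had 0 counts. Without WT replicate 1 the log2 fold change was -6.68 (adjusted p = 0.0264), and without WT replicate 2 it was -8.24 (adjusted p = 0.0126).

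In line 2, H19 did not pass against WT, with a log2 fold change of -0.91 (SE 0.66, adjusted p = 0.665). Within both groups replicate 1 was above replicate 2, by 2.84-fold in line 2 and by 3.07-fold in WT. Set against the WT library of the same number, line 2 held 52.8% and 57.1% of the H19 level. With the replicate number as a block, the log2 fold change was -0.87 and the adjusted p was 0.0349. Without WT replicate 1 the sign turned, to 0.10 (adjusted p = 1). H19 was higher in line 2 than in line 1, by a log2 fold change of 6.74 (SE 1.33, adjusted p = 0.0239), with 122 counts against 1 and a log2 ratio of 6.91 (counting interval 4.40 to 12.22). That call was lost without line 1 replicate 1 (6.23, adjusted p = 0.0681), without line 1 replicate 2 (8.90, adjusted p = 0.107) and without line 2 replicate 1 (5.87, adjusted p = 0.0602).

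H19 is also expressed in developing muscle, so muscle markers are given beside it. The 7 skeletal muscle markers summed to 5.14 and 2.32 CPM in line 1, 11.6 and 9.59 CPM in line 2 and 9.85 and 8.64 CPM in WT, lower in both line 1 libraries than in the other 4. Of 2 tested, 0 were called in either line against WT by edgeR or by DESeq2. An unadjusted edgeR p was under 0.05 for 1 in line 1 and 0 in line 2. Their median log2 fold change was -1.42 in line 1 and 0.44 in line 2. With the replicate block 0 were higher and 1 lower in line 1, where 16.3% and 16.1% of all genes were. In line 2, 1 was higher and 0 lower, where 5.87% and 6.25% were. Myf5, which marks the muscle lineage, was at 0 in all 6 libraries, and Myog, needed for muscle differentiation, was at 0 in every library but WT replicate 2. Myod1 was at 0 in every library of both lines and was read in both WT libraries. Myh3 was at 0 in line 1 replicate 2 and both line 2 libraries, and Ckm in these and in WT replicate 2. Each line 2 library thus had 5 of the 7 markers at 0, and its sum rests on Des and Acta1. The 5 endothelial markers summed to 2.97 and 3.55 CPM in line 1, 6.54 and 5.08 CPM in line 2 and 7.33 and 8.32 CPM in WT, lower in each library of both lines than in either WT library. Of 2 tested, 1 was called lower in each line, Kdr, the receptor for VEGF. It had 0 counts in both line 1 libraries, 5 and 3.5 in line 2 and 22.5 and 44.5 in WT. In CPM, Kdr held 5.81 and 7.20 of the WT sums, 1.21 and 0.564 of the line 2 sums and 0 in line 1. The lower sums thus rest on Kdr. The other endothelial markers together were higher in each library of both lines than in either WT library. With the replicate block 0 were higher and 1 lower in line 1, where 16.3% and 16.1% of all genes were. In line 2 it was 1 higher and 1 lower, where 5.87% and 6.25% were. Kdr was at least 24.5-fold lower in line 1 than in WT, with line 1 set to 3 counts in all as its floor (adjusted p = 0.00445). In line 2 its log2 fold change was -2.96 (SE 0.46, adjusted p = 0.0392), a call lost without either WT library (adjusted p = 0.171 and 0.244) or either line 2 library (0.163 and 0.355), and by DESeq2 0 of the 2 were called in line 2. The part of muscle and endothelial markers in the H19 and Cdkn1c values was not tested.

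Cdkn1c was the other member nearly lost from line 1. This gene (NM_009876, 7:143458339-143461050, minus strand, 1.90 kb of exon) encodes p57, which holds cells in G1 by inhibiting cyclin-dependent kinases. Deposited counts were 1 and 2 in line 1, 102.5 and 92.5 in line 2 and 246.5 and 234.5 in WT, or 0.270 and 0.273 CPM in line 1, 24.95 and 13.1 CPM in line 2 and 62.4 and 37.6 CPM in WT. The 3 groups did not overlap: line 1 was lowest and WT highest. Cdkn1c fell in line 1 relative to WT by a log2 fold change of -7.40 (SE 0.63, adjusted p = 0.00139). The summed counts, 3 against 482, gave a log2 ratio of -7.44 (counting interval -9.72 to -5.88), and across the alternatives other than no filter the adjusted p was at most 0.00772.

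In line 2 the Cdkn1c level was between those of line 1 and WT. Against WT the log2 fold change was -1.41 (SE 0.37) and did not pass by edgeR (adjusted p = 0.125). It passed by DESeq2 (adjusted p = 0.0326) and with the replicate block (log2 fold change -1.42, adjusted p = 0.00203). By replicate number, line 2 held 40.0% and 34.9% of the WT level, and replicate 1 was above replicate 2 by 1.90-fold in line 2 and by 1.66-fold in WT. Line 2 against line 1 gave a log2 fold change of 5.99 (SE 0.67, adjusted p = 0.00332), with 196 counts against 3. Line 1 and line 2 shared the Xist deletion and differed at H19 and Cdkn1c by this direct test.

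**Figure D2:**
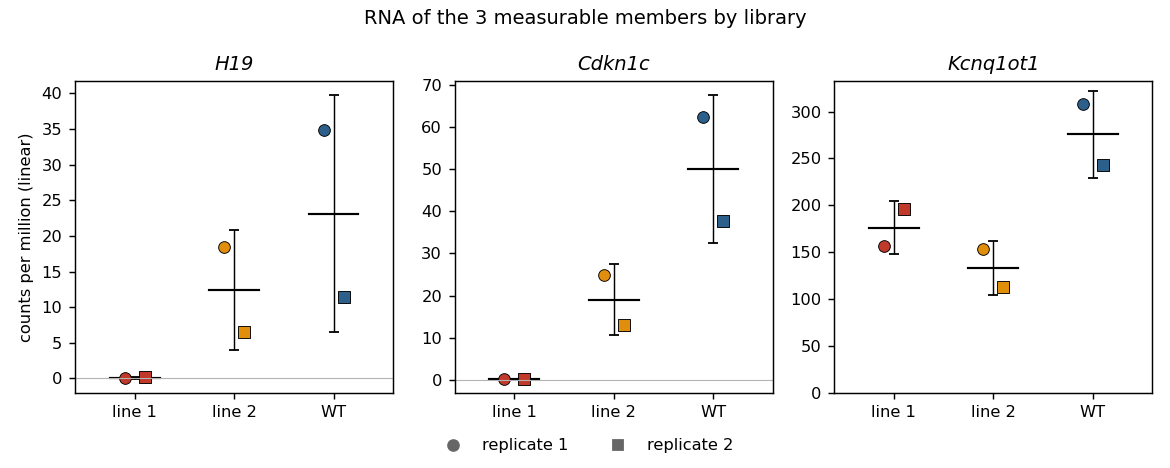
CPM of H19, Cdkn1c and Kcnq1ot1 in line 1, line 2 and WT (linear axes, 1 scale per gene), with circles for replicate 1, squares for replicate 2, and lines for the mean and SD of 2 libraries. H19 and Cdkn1c lie at or near 0 in line 1, at most 0.273 CPM, and Kcnq1ot1 lies between 113 and 196 CPM in both lines against 243 and 308 CPM in WT.

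Kcnq1ot1, the RNA that silences Cdkn1c in cis, was read in every library and was not lost in either line. Its single exon (NR_001461, 7:143213111-143296547, minus strand, 83.4 kb) lies wholly within the span of Kcnq1 on the plus strand (7:143107254-143427042). Deposited counts were 579 and 1436.5 in line 1, 633.5 and 802 in line 2 and 1219.5 and 1518.5 in WT. In CPM it had 157 and 196 in line 1, 154 and 113 in line 2, and 308 and 243 in WT. Both lines lay below both WT libraries, and line 1 and line 2 overlapped. No source used here states whether the authors' counting was strand-aware, so unspliced Kcnq1 RNA and Kcnq1ot1 cannot be told apart, although the exons of Kcnq1 held at most 2.5 counts in any library.

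For Kcnq1ot1 the log2 fold change against WT was -0.64 in line 1 (SE 0.21, edgeR adjusted p = 0.0993) and -1.05 in line 2 (SE 0.21, adjusted p = 0.0545), and neither passed. DESeq2 gave an adjusted p of 0.0481 in line 1 and 0.000606 in line 2. With the replicate block the adjusted p was 0.0382 in line 1 and 0.0130 in line 2. By replicate number, line 1 held 50.8% and 80.7% of the WT level and line 2 held 49.8% and 46.5%. Line 1 was the group in which replicate 1 was below replicate 2. Line 2 did not pass against line 1, at -0.41 (SE 0.21, adjusted p = 0.309). Kcnq1ot1 was thus 1.56-fold lower in line 1 and 2.07-fold lower in line 2 by the fit, while Cdkn1c was 169-fold lower in line 1. By the fit both genes were lower in both lines, though only Cdkn1c in line 1 passed by edgeR. Each value sums both parental copies, and a link between the levels of these genes was not tested.

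**Figure D3:**
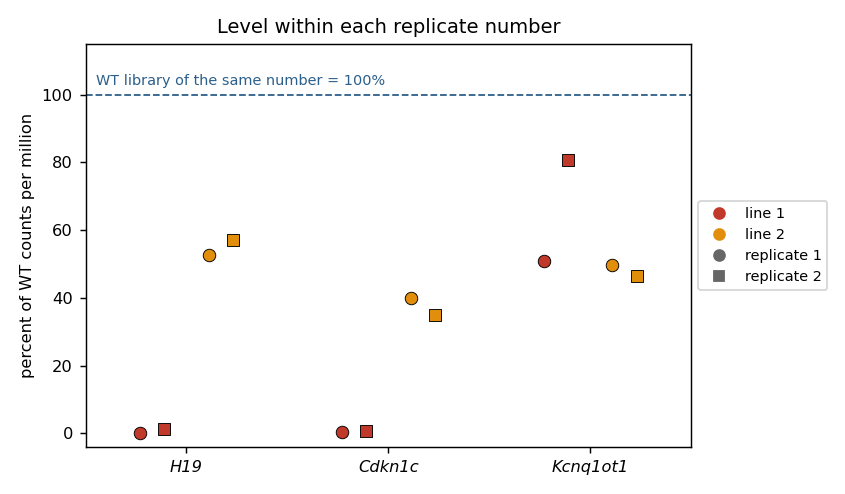
Level of H19, Cdkn1c and Kcnq1ot1 in each line 1 and line 2 library as a percentage of the WT library with the same replicate number (circles, replicate 1; squares, replicate 2; dashed line, WT at 100%). Line 2 points lie between 34.9% and 57.1% for all 3 genes, and line 1 lies near 0% for H19 and Cdkn1c but at 50.8% and 80.7% for Kcnq1ot1.

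Of the 3 members tested, 2 were called in line 1 against WT, both lower, where 14.3% of all 12910 genes tested were called, 6.75% higher and 7.55% lower. In line 2 against WT 0 of 3 were called by edgeR, where 3.58% of genes were called, 1.73% higher and 1.85% lower, while 2 had an unadjusted p under 0.05 and 2 passed by DESeq2, where 4.5% of genes did. Without a filter on low counts 2 members of 8 passed in line 2, where 4.84% of genes did, and with only the 2 groups in the fit 1 of 3 did, where 6.27% of genes did. With the replicate block 3 of 3 were lower in each line, where 16.1% of genes were lower and 16.3% higher in line 1, and 6.25% were lower and 5.87% higher in line 2. In line 2 against line 1, 2 of 3 were higher, where 12.6% of genes were called, 6.87% higher and 5.76% lower, and with the block 13.4% were higher and 13.8% lower. The median log2 fold change of all genes was 0.01 in line 1, 0.01 in line 2 and -0.01 between the lines. Both lines were set against the same WT libraries. H19 and Cdkn1c, with at most 2 counts in a line 1 library, passed the filter on low counts through line 2 and WT. In line 1 they could therefore only come out lower than those groups. The members were also chosen with earlier results of these data known, so the shares of all genes are background and no test of the members.

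The other 5 members were too low to test in any group. Igf2, whose protein drives fetal growth, lies next to H19 on the minus strand, and its transcript with the highest total (NM_010514, 7:142650768-142658804) had 1 and 2.5 counts in line 1, 1.5 and 2.5 in line 2 and 2.5 and 1 in WT. None of its 4 transcript rows exceeded 2.5 counts in a library, so the near loss of H19 in line 1 stood beside Igf2 at or below 3 counts, the floor used here, which is 0.409 to 0.811 CPM by library. Kcnq1, a voltage-gated potassium channel subunit, had 0 and 2 counts in line 1, 0.5 and 1.5 in line 2 and 1.5 and 2.5 in WT. Slc22a18, a member of the organic cation transporter family (NM_008767, 7:143473755-143499332, plus strand), had 0 and 0 counts in line 1, 2 and 1 in line 2 and 3 and 1 in WT. Phlda2, a brake on placental growth (7:143501548-143502524), had 0 and 0.5 counts in line 1, 0.5 and 0 in line 2 and 0.5 and 1 in WT. Ascl2, a transcription factor of the placenta and of intestinal stem cells (7:142966822-142969264), had 0.5 and 0 in line 1, 0.5 and 0 in line 2 and 0 in both WT libraries. At this depth no difference between groups was detectable for these 5 genes, and none of them rose to a level that could be tested in either line.

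Genes between and beside the members had far smaller fitted changes in line 1 than H19 and Cdkn1c. Of 58 other symbols within 1 Mb of the members' span of 927 kb, 24 could be tested. In line 1 against WT, 0 of 24 were higher and 2 were lower, which is 8.33% against 14.3% of all genes. These were Osbpl5, an oxysterol-binding protein (log2 fold change -0.56, SE 0.12, adjusted p = 0.0314), and Cars, the cysteinyl-tRNA synthetase (-0.46, SE 0.11, adjusted p = 0.0442). The fold changes of all 24 in line 1 lay between -1.17 and 0.70, with 20 below 0 and a median of -0.36, beside 0.01 for all genes. In line 2 the median was -0.34 with 22 below 0, and 1 of 24 was lower, or 4.17% against 3.58% of all genes. That gene was Tnfrsf26, a receptor of the TNF receptor family. With the replicate block, 1 was higher and 11 were lower in line 1, where 16.3% and 16.1% of all genes were, and 2 were higher and 7 lower in line 2, where 5.87% and 6.25% were.

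Tnfrsf26 (7:143607685-143627845) had 4 and 30.5 counts in line 1, 0 and 0 in line 2 and 22.5 and 44 in WT. No read of it was counted in line 2, and in CPM both line 1 libraries (1.08 and 4.23) lay below both WT libraries (5.81 and 7.04). It was at least 24.5-fold lower in line 2 than in WT, with line 2 set to 3 counts in all as its floor (adjusted p = 0.0401). It was at least 11.9-fold lower in line 2 than in line 1 (adjusted p = 0.0363), a call lost without any 1 library other than line 1 replicate 1 (adjusted p between 0.0606 and 0.168). The call against WT was lost without either WT library or either line 2 library, with adjusted p between 0.138 and 0.217, and the calls of Cars and Osbpl5 in line 1 were lost without WT replicate 1 (adjusted p = 0.231 and 0.193) and without WT replicate 2 (0.224 and 0.168). Leaving out a line 2 library lost both too, at adjusted p between 0.0803 and 0.117, and the call of Cars was also lost without line 1 replicate 2 (0.0847). Lsp1, an actin-binding protein (7:142471843-142494868) whose span overlaps that of Prr33 on the other strand, was higher in line 2 than in line 1 (1.22, SE 0.23, adjusted p = 0.0190). This call was lost without line 2 replicate 1 (adjusted p = 0.113) or line 2 replicate 2 (0.0649).

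**Figure D4:**
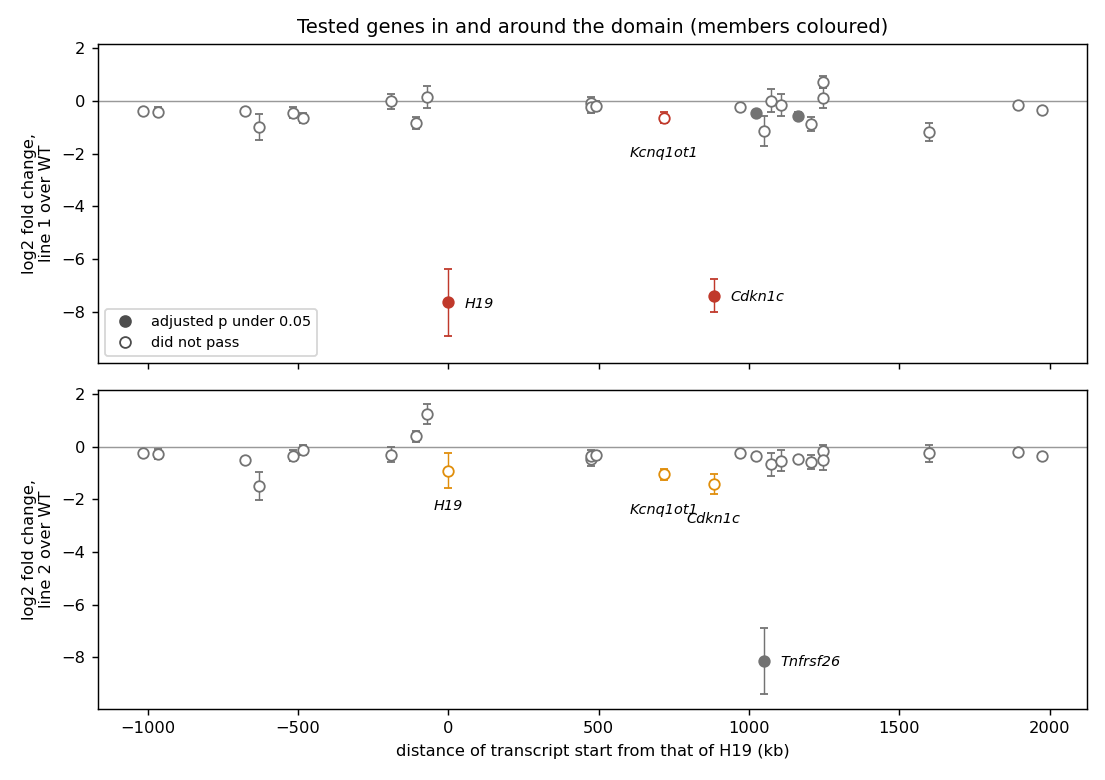
Fold change (log2, ± SE) of the 27 tested genes within 1 Mb of the domain, line 1 over WT above and line 2 over WT below, against the distance of each transcript start from that of H19 in kb, with members coloured and filled points for an adjusted p under 0.05. In line 1, H19 (-7.65) and Cdkn1c (-7.40) stand far below the 24 neighbours, which span -1.17 to 0.70; in line 2 the fitted value of Tnfrsf26, absent there, depends on the prior count.

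A list of 25 genes of the wider domain, chosen by name, overlaps these neighbours. Of its 14 tested genes, 0 were higher and 3 lower in line 1, or 21.4% called against 14.3% of all genes (median -0.24). These were Osbpl5, Cars and Tspan4, a tetraspanin (-0.57, SE 0.12, adjusted p = 0.0292). The call of Tspan4 was lost without either WT library (adjusted p = 0.209 and 0.0935), either line 2 library (0.0803 and 0.0866) or line 1 replicate 2 (0.0621). In line 2, 0 were higher and 1 lower, Tnfrsf26, or 7.14% against 3.58% (median -0.33). With the replicate block, 1 was higher and 5 were lower in each line, where 16.1% of all genes were lower in line 1 and 6.25% in line 2. Nap1l4, a histone chaperone beside Phlda2, had log2 fold changes of -0.24 in line 1 and -0.23 in line 2, and neither passed.

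Of the genes that receive or shape the IGF2 signal, 4 were called in line 1. Of 15 receptors, adaptors and RNA-binding proteins of Igf2, 12 were tested, of which 1 was higher and 3 were lower in line 1, or 33.3% called against 14.3% of all genes (median -0.13, beside 0.01 for all genes). With the replicate block 3 were higher and 5 lower, where 16.3% and 16.1% of all genes were. Igf1, the sister ligand of the same receptor, fell in line 1, to 11.6 and 13.4 CPM against 70.7 and 69.9 CPM in WT, with 58.9 and 58.1 CPM in line 2 (line 1 against WT -2.48, SE 0.15, adjusted p = 0.000549). Grb10, an imprinted adaptor that dampens insulin and IGF1 receptor signalling, also fell in line 1, to 88.7 and 88.6 CPM against 195 and 229 CPM in WT, with 288 and 277 CPM in line 2 (-1.26, SE 0.12, adjusted p = 0.00207). For both genes, each line 1 library lay below every other library. Igf1r, the receptor, fell by 0.71 (SE 0.13, adjusted p = 0.0173), and Hmga2, a chromatin protein that promotes Igf2bp2 transcription, rose by 1.61 (SE 0.27, adjusted p = 0.0121). The call of Hmga2 was lost without WT replicate 1 (adjusted p = 0.0802), and that of Igf1r without WT replicate 1 (0.125), WT replicate 2 (0.0536), line 2 replicate 1 (0.0503) or line 2 replicate 2 (0.0543).

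In line 2 against WT, 0 of these 12 genes passed by edgeR, while 4 had an unadjusted p under 0.05, 1 passed by DESeq2 and 4 were higher with the replicate block, where 5.87% of all genes were (median 0.10). Line 2 against line 1 gave 4 higher and 1 lower, or 41.7% called against 12.6% of all genes. Under the replicate block 5 were higher and 2 lower, where 13.4% and 13.8% of all genes were. Higher in line 2 than in line 1 were Igf1 (2.21), Grb10 (1.67), Igf2bp3, which binds the Igf2 transcript (0.92), and Igf1r (0.64), and Hmga2 was lower (-1.91). Of these 5, the calls of Igf1, Grb10 and Hmga2 held without any 1 library. Those of Igf1r and Igf2bp3 were lost without either line 2 library (adjusted p between 0.0855 and 0.168), and that of Igf1r also without WT replicate 2 (0.0529). Irs1, the substrate that the IGF1 receptor phosphorylates, had log2 fold changes against WT of 0.09 in line 1 and 0.29 in line 2 and did not pass in either.

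Of 26 factors that set or keep imprints, 22 were tested, of which 0 were higher and 2 lower in line 1 (median -0.18). That is 9.09% called against 14.3% of all genes, a share below the background. Under the replicate block 1 was higher and 4 were lower, where 16.3% and 16.1% of all genes were. The 2 were Zfp57, a zinc-finger protein that protects imprints (-0.65, SE 0.16, adjusted p = 0.0442), and Ehmt1, a histone H3 lysine methyltransferase (-0.42, SE 0.10, adjusted p = 0.0468). Neither passed by DESeq2 (adjusted p = 0.0622 and 0.0886), and both calls were lost without either WT library (adjusted p between 0.151 and 0.296), without either line 2 library (0.106 to 0.143) and without line 1 replicate 1 (0.0651 and 0.0678). In line 2 against WT, 0 passed by edgeR, with 2 at an unadjusted p under 0.05 and 0 by DESeq2, and 1 was higher and 2 lower with the replicate block (median -0.02), where 5.87% and 6.25% of all genes were. Ctcf, which binds the H19 control region, had log2 fold changes of -0.22 in line 1 and -0.31 in line 2, and Trim28, the corepressor that Zfp57 recruits, had -0.33 in both, and neither gene passed by edgeR. With the block, Ctcf passed in line 2 (adjusted p = 0.0449) and Trim28 passed in line 1 (0.0160) and line 2 (0.0325).

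Plagl1, an imprinted transcription factor of the same growth network, was read at 54.6 and 16.4 CPM in line 1, 53.8 and 33.1 CPM in line 2 and 14.7 and 8.32 CPM in WT. All 4 libraries of the deletion lines lay above both WT libraries. It did not pass by edgeR (log2 fold change 1.62, adjusted p = 0.154 in line 1; 1.94, adjusted p = 0.206 in line 2), but passed with the block (0.00940 and 0.00738) and by DESeq2 (0.0222 and 0.0108). Tet1, an enzyme that oxidises methylated DNA, was higher in line 2 than in line 1 (1.26, SE 0.26, adjusted p = 0.0270; 5 factors were higher and 1 lower with the replicate block, where 13.4% and 13.8% of all genes were), and this call was lost without any 1 library other than line 1 replicate 1 (adjusted p between 0.0546 and 0.154). Tet2, a related enzyme, had log2 fold changes of 0.56 in line 1 and 0.25 in line 2 and did not pass against WT by edgeR, but passed in line 1 with the block (adjusted p = 0.00474).

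The search for similar profiles left out the members themselves, and predicted, microRNA, small nucleolar and ribosomal symbols. Of the other tested genes, those whose profile over the 6 libraries was most like each tested member lay outside the domain. Likeness was the Euclidean distance between centred log2 CPM values. For H19 the nearest were Nrk, an X-linked kinase (distance 1.36), and Grik5, a glutamate receptor subunit of proximal chromosome 7 (1.39). For Cdkn1c they were Hoxc4, a homeobox gene (1.14), and Grik5 (1.15). For Kcnq1ot1 they were Elmo3, an engulfment adaptor (0.345), and Mlh3, a mismatch repair protein (0.364). Grik5 had 3.51 and 1.36 CPM in line 1, 67.6 and 40.5 CPM in line 2 and 162 and 83.5 CPM in WT, the same order of groups as Cdkn1c. Hoxc4 had 0 counts in both line 1 libraries, 19.1 and 17.5 CPM in line 2 and 30.3 and 28.3 CPM in WT.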

How the data were processed

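RNA-seq of 6 libraries (2 each of line 1, line 2 and WT) was used. Per the labels' protocols, ribosomal RNA was removed from total RNA, and directional libraries were read as pairs of 50 bp, in 2 biological replicates. The authors deposited expected counts over exons per RefSeq transcript, in steps of 0.5 and without normalization, per the file headers. The build was mm10, per the submitters' processing notes, which also list HOMER, TopHat2, bedtools 2.25.0, SAMtools and Trim Galore 0.4.1. Neither the role of each tool nor the strand setting of the counting is stated in any source used. Files of X-linked sites and allele classes were not used.

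The design assumed counts; the expected counts were rounded to whole numbers, with 0.5 rounded up. Of 28972 transcripts, the one with the highest total stood for each of 24470 symbols. After filterByExpr, 12910 symbols entered 1 quasi-likelihood fit (edgeR 4.0.16, limma 3.58.1, R 4.3.3) with TMM scaling, a mean per group, 3 residual degrees of freedom and Benjamini-Hochberg adjustment over all of them (threshold 0.05). Adjusted p-values are from this fit unless DESeq2 (1.42.0) or the block is named. The SE is the log2 fold change over the root of the F statistic. Ratios of summed counts have exact 95% intervals that cover counting error only. Differences between replicates 2 and 1 correlated between groups (0.540, 0.594 and 0.528), so the replicate number was used as a block in an alternative fit. The main fit did not pair the libraries. The numbers also stand for depth, replicate 1 being the shallower. The fit was run on simulated data with 1 common spread for all genes and 200 genes changed in line 1. It called 199 of these and 8 unchanged genes. Changes as large as those of H19 and Cdkn1c in line 1, and their own spread between replicates, were not simulated.

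Members and lists were chosen with earlier results of these data known. Named besides the members and Xist were, for each list, up to 4 tested genes with the lowest adjusted p per line, neighbours within 1 Mb that passed in either line, and the 2 genes most like each tested member; Lsp1, Igf2bp3 and Tet1 fall under these rules, and Prr33 was named after its values were seen. Alternatives were other scaling, no filter, DESeq2, the block, only the groups compared, all transcripts, rounding down, and each library left out.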

Additional observations from a re-analysis of the deposited data

Results flagged for a closer look

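The lines were set directly against each other, with values given as log2 fold change, line 2 over line 1. By edgeR's quasi-likelihood test, 12.6% of all genes tested were called. Of the 3 tested members and 25 other named genes, 13 were called. Among the members these were H19 (6.74) and Cdkn1c (5.99), with Kcnq1ot1 not passing (-0.41). Among genes of IGF2 reception and RNA binding they were Igf1 (2.21), Grb10 (1.67), Igf2bp3 (0.92), Igf1r (0.64) and Hmga2 (-1.91). Tet1 (1.26) was the one among imprint control factors. Among neighbours they were Lsp1 (1.22) and Tnfrsf26, whose fitted value (-6.99) depends on the prior count, since line 2 held 0 counts against 35 in line 1. Of the genes with a profile like a member's, Grik5 differed by 4.62. Nrk differed by 7.68, with 233 counts in line 2 against 1 in line 1 and a log2 ratio of 7.84 (counting interval 5.35 to 13.15). Hoxc4 had a fitted 9.63 that depends on the prior count, with 203 counts in line 2 against 0 in line 1, at least 66.5-fold higher with line 1 set to 3 counts in all as its floor. Over the alternatives other than no filter, these values ranged from 6.30 to 10.06 for Nrk and from 3.91 to 5.27 for Grik5, with both ends of each range reached without 1 line 1 library. The value of 10.06 depends on the prior count, since the line 1 library left had 0 counts of Nrk. Nrk, Grik5 and Hoxc4 were chosen for their likeness to H19 or Cdkn1c, so their difference follows from the choice. The list genes and called neighbours were picked by their adjusted p against WT in these same libraries. The count of 13 is therefore a description and no test. Each line is 1 cell line, and the causes were not tested.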

How the results depend on the processing

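Counts of genes called depended on the block and on single libraries. In line 1 against WT 1846 genes were called, 4183 with the replicate block and 718 to 2365 with 1 library left out. In line 2 against WT 462 were called, 948 without a filter, 1565 with the replicate block, 792 with only the 2 groups compared and 23 to 783 with 1 library left out. In line 2 against line 1 1630 were called, 3506 with the replicate block and 601 to 1993 with 1 library left out. Members called in line 1 were 2, and 1 to 2 with 1 library left out; in line 2 against WT 0, but 2 without a filter, 2 by DESeq2, 3 with the replicate block, 1 with only the 2 groups compared and 0 to 1 with 1 library left out; between the lines 2, and 1 to 2 with 1 library left out. In line 1 against WT, the members called were 3 without a filter, 3 by DESeq2 and 3 with the replicate block. H19 in line 2 against WT, at -0.91, ranged from -1.81 to 0.10 with 1 library left out, and was above 0 without WT replicate 1. The cause was not tested, except that leaving out a library leaves a group with 1 sample, assumed to vary like the others. Of 126 results of the 3 tested members under alternatives, 108 kept direction and side of the threshold, 4 lost and 13 gained the call and 1 reversed; of 1048 for 25 other named genes, 936 kept both, 65 lost and 47 gained it. Depth limits Igf2, Ascl2, Kcnq1, Slc22a18 and Phlda2, which lie at or below 3 counts in each library.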
